A study of Mus musculus with 8 samples.

Results

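The genes described here are 8 genes of the renin-angiotensin and endothelin systems, Agt, Ace, Agtr1a, Agtr2, Edn1, Ednra, Ednrb and Nr3c2, out of 19983 gene symbols that the arrays carry. All probes whose RefSeq accession matched one of these symbols were taken, which gave 9 probes, a pair for Ednrb and 1 for each other gene. RNA came from 8 heart samples of male C57BL6 mice, 4 control and 4 double-transgenic (dtg), each hybridised to its own 1-colour array. The control mice were positive for Cre recombinase and negative for floxed IGF-1R, and the dtg mice were merCremer/+ IGFloxP/IGFloxP, that is, they carried merCremer, a Cre recombinase switched on by tamoxifen, with both copies of the receptor gene floxed. All mice, controls included, received 4OH-Tamoxifen (500 µg a day in peanut oil for 10 days) at 8 months of age to remove exon 3 of the receptor for insulin-like growth factor 1, and hearts were taken 6 weeks later. The promoter that drives merCremer is not named in the labels, and the heart chambers taken are not stated. Each sample is called a heart below, but the labels do not mention separate animals. The spread behind each p-value is therefore that of the 8 samples and may be technical. The comparison addresses how the heart differs after a treatment meant to remove exon 3 of the receptor, in a study of diastolic function with age. Whether the receptor was lost, and in which cells, is not shown by these data.

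Angiotensinogen (Agt) is the precursor from which renin and then angiotensin-converting enzyme (Ace) make angiotensin II, a peptide that constricts vessels and promotes growth and fibrosis in the heart through the receptor encoded by Agtr1a. The receptor encoded by Agtr2 is known mainly from fetal tissue and opposes many of these actions. Endothelin (Edn1) is a constrictor peptide made chiefly by endothelial cells. It acts through Ednra on muscle cells and through Ednrb, which on endothelium promotes relaxation and clears the peptide. Nr3c2 encodes the mineralocorticoid receptor, through which aldosterone, whose release angiotensin II stimulates, acts on heart muscle and vessels.

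Promoter sequence is shown for Agt, whose level varied most between hearts among the members, for Ace, which has separate transcription starts for its somatic and its testis form, and for Edn1, the gene with repeated spots. Each runs 5′ to 3′ on the gene's strand from 250 bases before to 50 bases after the start, as given by RefSeq on GRCm38.p6, at chr8:124569657-124569956 (minus strand) for Agt, chr11:105967698-105967997 and chr11:105974939-105975238 (plus strand) for the upstream and the downstream Ace start, and chr13:42301226-42301525 (plus strand) for Edn1. Capitals mark the letters of the motifs searched.
Agt: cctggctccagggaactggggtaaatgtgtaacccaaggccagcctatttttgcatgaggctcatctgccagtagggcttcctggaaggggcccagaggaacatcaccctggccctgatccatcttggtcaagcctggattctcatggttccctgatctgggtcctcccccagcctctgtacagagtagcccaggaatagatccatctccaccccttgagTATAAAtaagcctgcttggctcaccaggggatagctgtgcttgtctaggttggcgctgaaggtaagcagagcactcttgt
Ace, upstream start: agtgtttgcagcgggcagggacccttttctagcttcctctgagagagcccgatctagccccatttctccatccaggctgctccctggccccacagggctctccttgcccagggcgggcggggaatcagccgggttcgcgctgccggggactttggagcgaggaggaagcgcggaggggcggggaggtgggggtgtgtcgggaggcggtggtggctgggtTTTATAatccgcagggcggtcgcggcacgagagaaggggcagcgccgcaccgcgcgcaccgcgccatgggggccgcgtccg
Ace, downstream start: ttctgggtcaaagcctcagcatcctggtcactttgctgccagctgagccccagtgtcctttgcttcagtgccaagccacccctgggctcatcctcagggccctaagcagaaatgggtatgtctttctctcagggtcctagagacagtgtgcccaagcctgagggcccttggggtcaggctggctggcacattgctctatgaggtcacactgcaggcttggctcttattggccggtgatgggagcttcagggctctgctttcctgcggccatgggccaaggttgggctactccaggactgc
Edn1: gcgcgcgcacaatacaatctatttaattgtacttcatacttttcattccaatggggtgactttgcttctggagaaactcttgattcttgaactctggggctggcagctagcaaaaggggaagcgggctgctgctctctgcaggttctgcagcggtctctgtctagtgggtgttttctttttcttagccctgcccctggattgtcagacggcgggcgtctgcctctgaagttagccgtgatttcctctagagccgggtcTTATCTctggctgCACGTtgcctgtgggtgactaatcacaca
The motifs, searched on both strands, were TATAAA (the TATA box), AGATAA (the site of GATA factors), TGANTCA (AP-1), AGAACA (a half-site of corticosteroid receptors) and ACGTG (the core of the hypoxia element). The TATA box lay at positions -30 to -25 of Agt and, on the opposite strand, at -31 to -26 of the upstream Ace start, and it is found in 13.6% of the 32851 promoters of that length. The capitals in Edn1 are the GATA letters at positions 9 to 14 after the start and the hypoxia core at 22 to 26, both on the opposite strand, which 11.2% and 19.6% of promoters hold. AP-1 and half-site letters, in 7.81% and 19.0% of promoters, did not occur in these windows, and the downstream Ace window held none of the 5 motifs. The Ace probe is tied to 1 of 3 RefSeq transcripts of the gene, and which start it reports on is not known here.

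Levels are log2 processed signals minus the 75th percentile of the array, so that 0 is the signal of that percentile. A probe's brightness also depends on its own sequence, so levels were compared between hearts and not between genes. Of the 9 probes, 8 were well above background on all 8 arrays, and that of Agtr2 was not on any. The arrays lay on 2 slides: control 1, control 2, dtg 1 and dtg 4 on slide 1, and the others on slide 2. The arrays of control 4, dtg 3 and dtg 4 resembled no other closely, with Pearson's r across genes of 0.973 to 0.988 to any other array (genes are not independent replicates). All 8 cardiomyocyte markers (Myh6, Tnnt2, Tnni3, Actc1, Myl2, Pln, Ryr2 and Ttn) were detected, with a mean level between 7.59 and 7.81. The mean of 10 detected atrial markers ranged from 0.78 to 2.82 in control and from 0.65 to 2.49 in dtg hearts. Igf1r itself stood at 0.18, 0.21, 0.38 and 1.04 in controls 1 to 4 and at -0.30, -0.21, 0.17 and 0.40 in dtg 1 to 4, a difference of -0.43 (SE 0.24; limma, adjusted p = 1). Since the position of its probe relative to exon 3 is not known here it does not check the labels.

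None of the 7 detected members differed between dtg and control hearts beyond the spread of the samples. In limma, fitted over 21412 genes and unnamed features with Benjamini-Hochberg adjustment, the adjusted p was 1 for each member. Of all features 0 passed an adjusted p under 0.05 (0%), and 159 (0.743%) had an unadjusted p under 0.05, none of them a member. Groups were free of overlap for 0 of the 7 members, against 0.519% of all features. All 7 differences were above 0, with a median of 0.040 against 0.015 over all features. For 5 of them (Agt, Ace, Edn1, Ednra and Ednrb) the difference was under 0.05 in size, and the same 5 lay below 0 when arrays were scaled to their median instead. In bulk tissue, fewer cells of a type and less RNA per cell cannot be told apart.

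**Figure D1:**
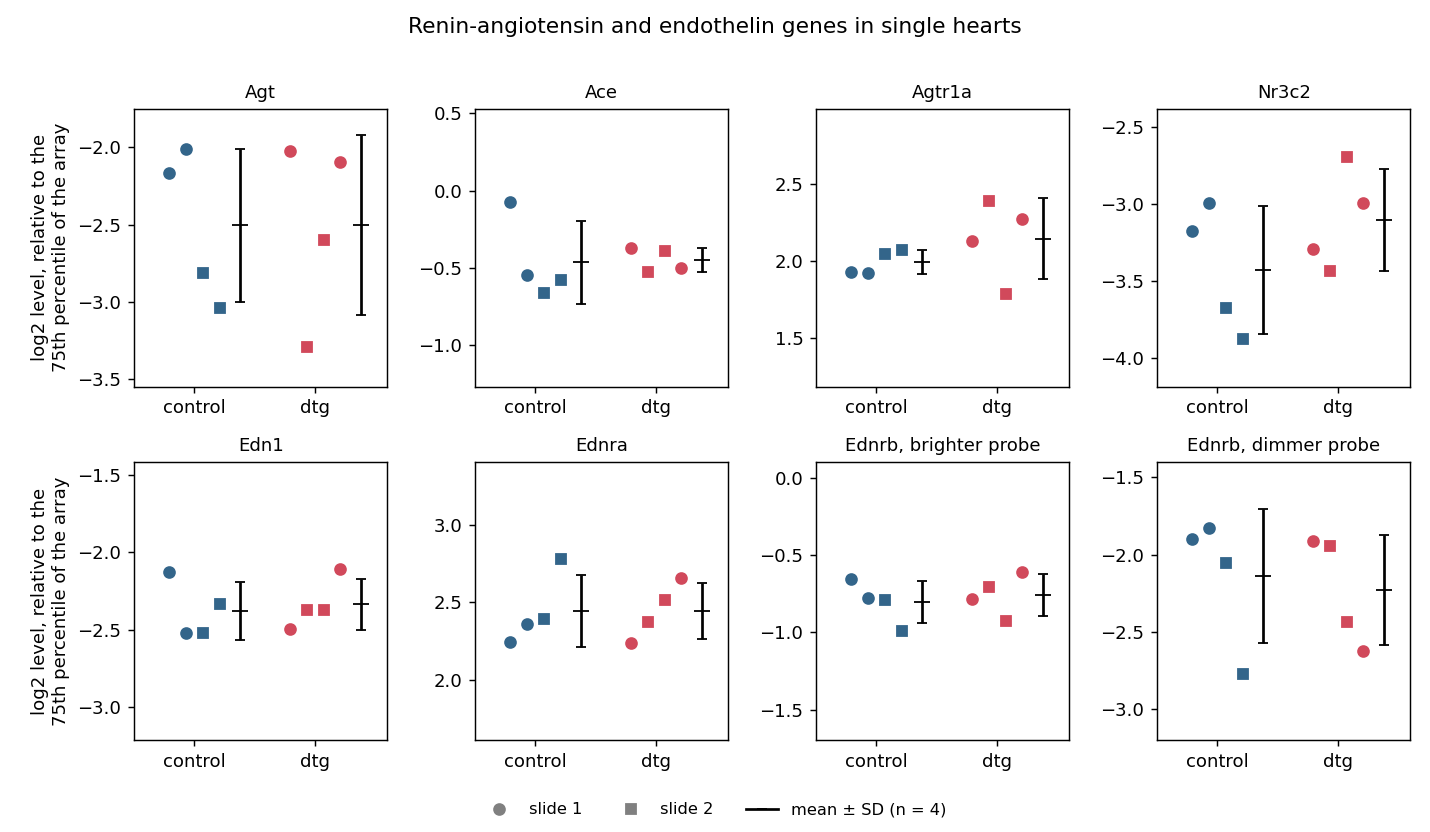
Log2 level of each detected member in single hearts, scaled to the array's 75th percentile. Blue points are control and red points dtg hearts, circles lie on slide 1 and squares on slide 2, bars are the mean ± SD (n = 4), and every panel spans the same number of log2 units. The groups overlap in each panel, and the circles of Agt all lie above its squares.

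Angiotensinogen was the member that varied most between hearts of a group. Agt stood at -2.16, -2.01, -2.81 and -3.04 in controls 1 to 4 and at -2.02, -3.29, -2.60 and -2.10 in dtg 1 to 4. The 4 hearts on slide 1 were all higher than the 4 on slide 2, whatever their genotype, with means of -2.07 and -2.94, a signal 1.82 times as high on slide 1. Across all features, 17.5% separated the slides in the same way and 14% with slide 1 higher, so 1 of 7 members is near the background. The spread of Agt within groups was 0.54 (pooled SD), against a median of 0.26 over all features. The means were -2.51 ± 0.50 (SD, n = 4) for controls and -2.50 ± 0.58 (SD, n = 4) for dtg hearts, a difference of 0.0027 (SE 0.34) with a 95% interval of -0.78 to 0.79, or 0.581 to 1.73 times the control level. With slide as a block the SE fell to 0.16, and the differences within slides 1 and 2 were 0.026 and -0.020. The difference was -0.10 without control 3, -0.18 without control 4, -0.16 without dtg 1 and -0.13 without dtg 4, and 0.26 without dtg 2.

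Angiotensin-converting enzyme had its highest value in 1 control heart. Ace was at -0.073, -0.55, -0.66 and -0.58 in controls 1 to 4 and at -0.37, -0.53, -0.39 and -0.50 in dtg 1 to 4. All dtg hearts lay inside the range of the controls, and without control 1 the other 7 hearts spanned only -0.66 to -0.37. The difference was 0.018 (SE 0.15, 95% interval -0.32 to 0.35), -0.13 within slide 1, which holds control 1, and 0.16 within slide 2. It was 0.15 without control 1, and -0.0099, -0.049, -0.019, -0.0078 and -0.0020 without control 2, control 3, control 4, dtg 1 and dtg 3.

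Of the angiotensin receptors, Agtr1a was well detected and Agtr2 was not. Agtr1a, the main receptor for angiotensin II in mouse heart, stood at 1.93, 1.92, 2.05 and 2.07 in controls 1 to 4, a 1.11-fold range. In dtg 1 to 4 it was 2.13, 2.39, 1.79 and 2.27. Dtg 1, dtg 2 and dtg 4 were above every control and dtg 3 was below every control. The mean was 2.14 ± 0.26 (SD, n = 4) in dtg and 1.99 ± 0.079 (SD, n = 4) in control hearts, a difference of 0.15 (SE 0.14, 95% interval -0.18 to 0.48; limma, adjusted p = 1). Without dtg 3 the difference was 0.27, without dtg 2 it was 0.071, and it was 0.28 within slide 1 and 0.026 within slide 2. With a normexp background correction that left out spots darker than their local background it was 0.22. The Agtr2 probe gave values between -7.48 and -7.14 that are not well above background on any array, so no fold is given. The probe of Agtr1b, a close paralog of Agtr1a with its own gene, was not well above background on any array either.

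Nr3c2, the mineralocorticoid receptor gene, had the largest difference of the 7 detected members and, after Agt, the widest spread within groups (pooled SD 0.37). Its level was -3.17, -2.99, -3.68 and -3.87 in controls 1 to 4 and -3.29, -3.44, -2.69 and -3.00 in dtg 1 to 4. Dtg 3 was the highest heart, control 4 the lowest, and the other 6 overlapped. The means were -3.43 ± 0.41 (SD, n = 4) for controls and -3.11 ± 0.33 (SD, n = 4) for dtg hearts, a difference of 0.32 (SE 0.24, 95% interval -0.24 to 0.88; limma, adjusted p = 1). Within slide 2 the difference was 0.71, and within slide 1 it was -0.062. Without control 4 it was 0.18, without dtg 3 it was 0.19, and it was 0.075 with normexp without dark spots and -0.16 with normexp on all spots. Weighting arrays by their quality gave -0.033, and the other 5 arrays alone, blocked by slide, gave -0.018. The 3 genes whose levels were most like those of Nr3c2 over the 8 hearts were Olfr161, Olfr975 and Acod1 (Pearson's r = 0.980, 0.977 and 0.976). Olfr161 was well above background on 4 of the 8 arrays and Olfr975 and Acod1 on 5 each, so part of each likeness rests on values at background.

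**Figure D2:**
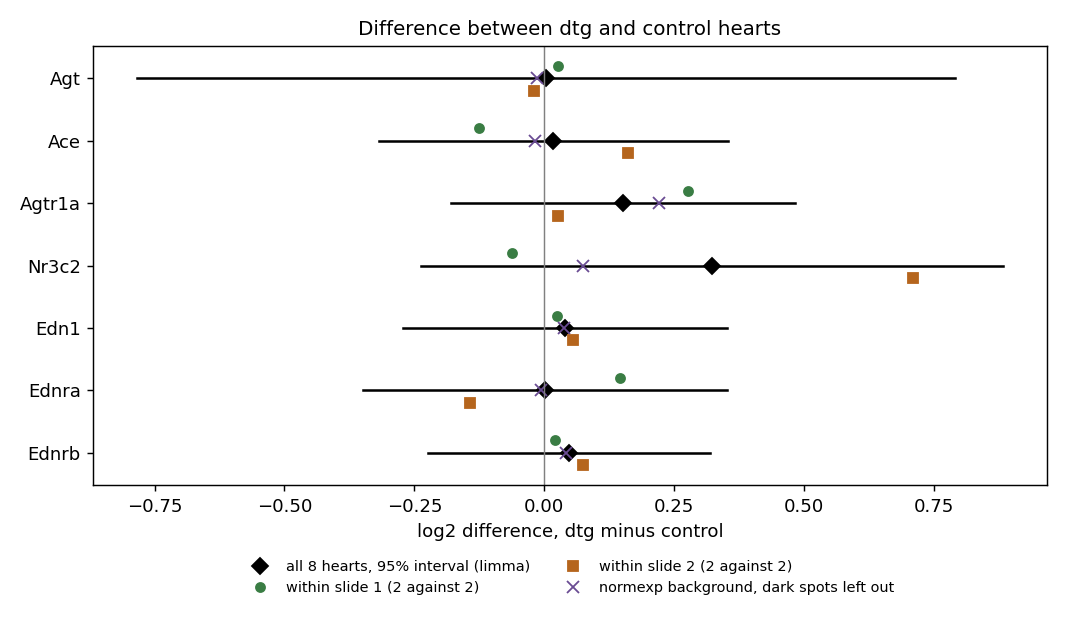
Log2 difference, dtg minus control, of the 7 detected members. Diamonds and bars are limma's estimate with its 95% interval over all 8 hearts, circles and squares are the differences within slide 1 and slide 2, and crosses are the estimate with normexp background correction without dark spots. Every interval includes 0, and that of Ednrb is the narrowest, from -0.22 to 0.32.

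Edn1 was measured with 10 spots on each array, which shows how much of its variation lies between arrays. Its mean level was -2.13, -2.52, -2.52 and -2.34 in controls 1 to 4 and -2.50, -2.37, -2.38 and -2.11 in dtg 1 to 4. Control 1 and dtg 4, both on slide 1, were the highest of their groups, and the groups overlapped throughout. The SD over the spots of an array was between 0.079 and 0.15, with a median of 0.11, and the SD of the 8 array means was 0.16. Every spot of control 1 (lowest -2.26) and of dtg 4 (lowest -2.28) was brighter than every spot of control 2 (highest -2.33) and of dtg 1 (highest -2.32). The spots of control 3, control 4, dtg 2 and dtg 3 (highest -2.25, -2.19, -2.18 and -2.20) overlapped with those of control 1 and dtg 4. The difference between groups was 0.040 (SE 0.14, 95% interval -0.27 to 0.35), or 0.828 to 1.28 times the control level. It was 0.12 without control 1, and -0.0087, -0.0082 and -0.037 without control 2, control 3 and dtg 4.

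**Figure D3:**
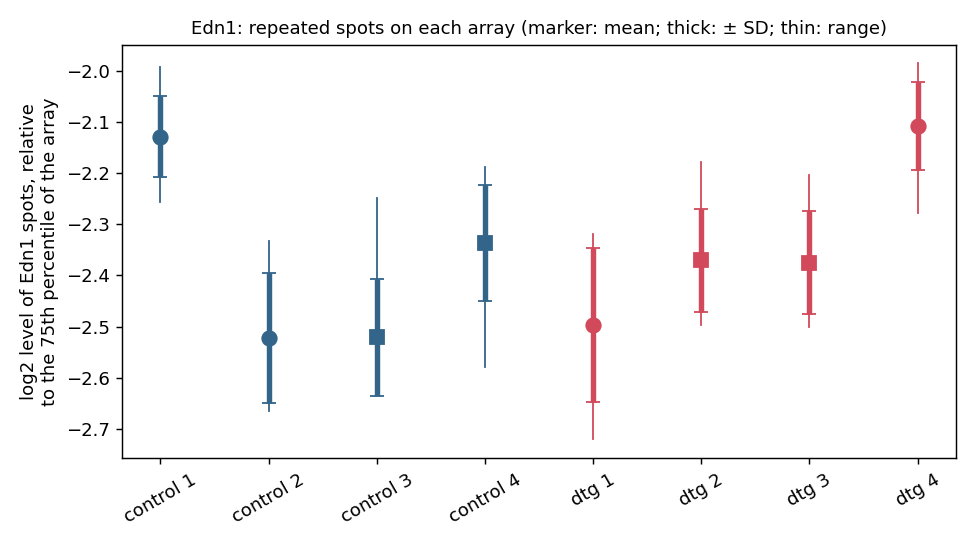
Log2 level of the Edn1 spots on each array, scaled to the array's 75th percentile. The marker is the mean of the spots (9 on control 1 after 1 outlier, 10 on the others), the thick bar ± SD and the thin bar the range, with control hearts in blue, dtg hearts in red, and circles for slide 1. Control 1 at -2.13 and dtg 4 at -2.11 lie above the other 6 means, which run from -2.52 to -2.34.

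No relation of Edn1 to endothelial markers was detectable over the 8 hearts. All 12 markers on that list (among them Pecam1, Cdh5, Kdr and Cldn5) were detected, with a mean level from 2.19 to 2.35 in control and from 2.02 to 2.28 in dtg hearts. Dtg 4, the heart with the highest Edn1, had the lowest endothelial level, whereas control 1 had the highest of both in its group. Pearson's r over the 8 hearts was -0.143 (two-sided exact permutation p = 0.746) and Spearman's rho 0.190 (exact permutation p = 0.665), with r at 0.343 without control 1 and dtg 4, -0.209 within slide 1 and 0.724 within slide 2. The gene most like Edn1 was Ero1a, an oxidase of the endoplasmic reticulum (r = 0.962 over 8 hearts), ahead of the chemokine gene Ccl5 (r = 0.900) and Btbd2 (r = 0.895). Ero1a was the single gene of 14782 with r above 0.9.

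Neither endothelin receptor gene differed beyond the spread of the samples, and the interval of Ednrb was the tightest of the members. Ednra stood at 2.24, 2.36, 2.39 and 2.78 in controls 1 to 4 and at 2.24, 2.37, 2.51 and 2.66 in dtg 1 to 4. The 3 highest hearts were control 4, dtg 4 and dtg 3, those whose arrays resembled no other closely. Mean levels were 2.44 ± 0.23 (SD, n = 4) for controls and 2.45 ± 0.18 (SD, n = 4) for dtg hearts, a difference of 0.0019 (SE 0.15, 95% interval -0.35 to 0.35), or 0.786 to 1.28 times the control level. Without those 3 arrays and blocked by slide it was -0.045. The difference was 0.15 within slide 1 and -0.14 within slide 2, and -0.065, -0.025, -0.016, -0.020 and -0.069 without control 1, control 2, control 3, dtg 3 and dtg 4. As many as 870 of 14782 genes had a Pearson's r above 0.9 with Ednra over the 8 hearts, led by Nadk2, Dhrs7b and Hebp1 (r = 0.992, 0.989 and 0.988), so the order of hearts seen in Ednra is a common one on these arrays.

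Ednrb was read by a pair of probes that ordered the hearts differently. The brighter probe gave -0.65, -0.78, -0.79 and -0.99 in controls 1 to 4 and -0.79, -0.71, -0.93 and -0.61 in dtg 1 to 4, a 1.30-fold range over all hearts. The dimmer probe gave -1.90, -1.83, -2.05 and -2.78 in controls and -1.91, -1.94, -2.44 and -2.62 in dtg hearts. Control 4, dtg 3 and dtg 4 were the lowest with the dimmer probe, whereas dtg 4 was the highest with the brighter one. The difference between groups was 0.048 (SE 0.12, 95% interval -0.22 to 0.32) with the brighter probe, or 0.857 to 1.25 times the control level, and -0.089 with the dimmer one. For the brighter probe it was -0.014 without control 4 and -0.0023 without dtg 4. The genes most like it were Rraga, Patl1 and Cdk1 (r = 0.957, 0.955 and 0.953 over 8 hearts), with Cdk1 well above background on 5 arrays.

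For the other members with a detected probe, the most similar patterns were those of Gsdmc, Gm15760 and Cyp4f39 for Agt (r = 0.985, 0.984 and 0.983), of Them6 (well above background on 7 arrays), Sash3 and C6 for Ace (r = 0.986, 0.968 and 0.960) and of Trip12 and Islr2 for Agtr1a (r = 0.938 and 0.920). For Agt, 256 genes had r above 0.9, and for Agtr1a 3 did. Gsdmc, Gm15760 and Cyp4f39 were, like Agt, higher in each heart of slide 1 than in any heart of slide 2. Gsdmc, for example, lay at -3.50 to -3.35 on slide 1 and at -5.28 to -4.40 on slide 2. Their r with Agt over 8 hearts therefore cannot be told apart from the split between slides. Whether the same holds for all 256 genes was not tested. Among themselves the members showed no shared pattern. Over the 21 pairs of the 7 members Pearson's r ran from -0.469 to 0.582, with a smallest two-sided exact permutation p of 0.135 (adjusted p = 0.670), and the smallest p for Spearman's rho was 0.115.

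Set against the mean levels of 11 marker lists, 0 of 77 pairs of member and list passed an adjusted p under 0.05 (two-sided exact permutation test with Benjamini-Hochberg adjustment), and 7 had an unadjusted p under 0.05. Of these 7 pairs, those with nerve and glia and with leukocyte markers involved Agt, which separates the slides, so no pooled r is given for them. The mean of the 4 nerve and glia markers was -2.16 to -1.88 on slide 1 and -2.48 to -2.28 on slide 2, and that of the 8 detected leukocyte markers was 0.079 to 0.37 on slide 1 and -0.11 to -0.060 on slide 2. Both lists were thus higher in all 4 hearts of slide 1, as Agt was, and their part in its level was not tested. Agtr1a and the 5 detected erythroid markers had r = 0.772 (exact permutation p = 0.0255, adjusted p = 0.328) and rho = 0.762 (exact permutation p = 0.0368), with r = 0.766 without control 1 and dtg 4, 0.906 within slide 1 and 0.747 within slide 2. Ednra had r = 0.848 with the 3 detected markers of endocardium and valve (exact permutation p = 0.00992, adjusted p = 0.294) and rho = 0.810 (exact permutation p = 0.0218), but r was 0.369 without control 4 and dtg 4, so the relation rests on those hearts, and it was 0.878 within slide 1 and 0.780 within slide 2. With the 5 detected mast cell markers Ednra had r = -0.807 (exact permutation p = 0.0152, adjusted p = 0.294) and rho = -0.762 (exact permutation p = 0.0368), with r = -0.511 without control 1 and control 4, -0.740 within slide 1 and -0.866 within slide 2. With the 10 fibroblast markers Ednra had r = 0.707 (exact permutation p = 0.0492, adjusted p = 0.475) and rho = 0.571 (exact permutation p = 0.151), with r = 0.688 without control 4 and dtg 3, 0.902 within slide 1 and 0.572 within slide 2. Nr3c2 had r = -0.776 with 10 fibroblast markers (exact permutation p = 0.0232, adjusted p = 0.328) and rho = -0.762 (exact permutation p = 0.0368). That relation was -0.383 without control 4 and dtg 3, and it turned from 0.705 within slide 1 to -0.953 within slide 2.

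Among the partners of the angiotensin system, Mas1, the receptor for angiotensin 1-7, differed by 0.32 (SE 0.15) with the probe used, from a control mean of -2.93 ± 0.22 (SD, n = 4) to -2.61 ± 0.18 (SD, n = 4), with overlap between groups (limma, adjusted p = 1). Its second probe differed by -0.29, so the probes disagree on direction, and the mean of both gave 0.017.

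Of 20 listed partners of the renin-angiotensin system 19 were kept, 12 of them higher and 7 lower in dtg hearts by their means, with a median difference of 0.052. Over all features 11847 were higher and 9565 lower, a balance that depends on the scaling: the median difference of all features was 0.015, and -0.065 with arrays scaled to their median. No partner passed limma's adjusted threshold in either direction. Mcpt4, a mast cell chymase that can form angiotensin II in mice, differed by -0.16 (SE 0.13). Ren1 was well above background on 7 of the 8 arrays and varied widely, at -2.38, -2.38, -4.62 and -4.11 in controls 1 to 4 and -2.59, -3.61, -2.72 and -2.87 in dtg 1 to 4. Its difference of 0.42 (SE 0.55) was -0.35 within slide 1 and 1.20 within slide 2. The probe named for Ren2, a near-identical renin gene that not every mouse strain carries, differed by -0.29 (SE 0.35). It was picked out after its values were seen. Signal from this probe does not show that these C57BL6 mice carry or express Ren2. Since transcripts of near-identical genes can bind either probe, the values of both probes are uncertain.

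**Figure D4:**
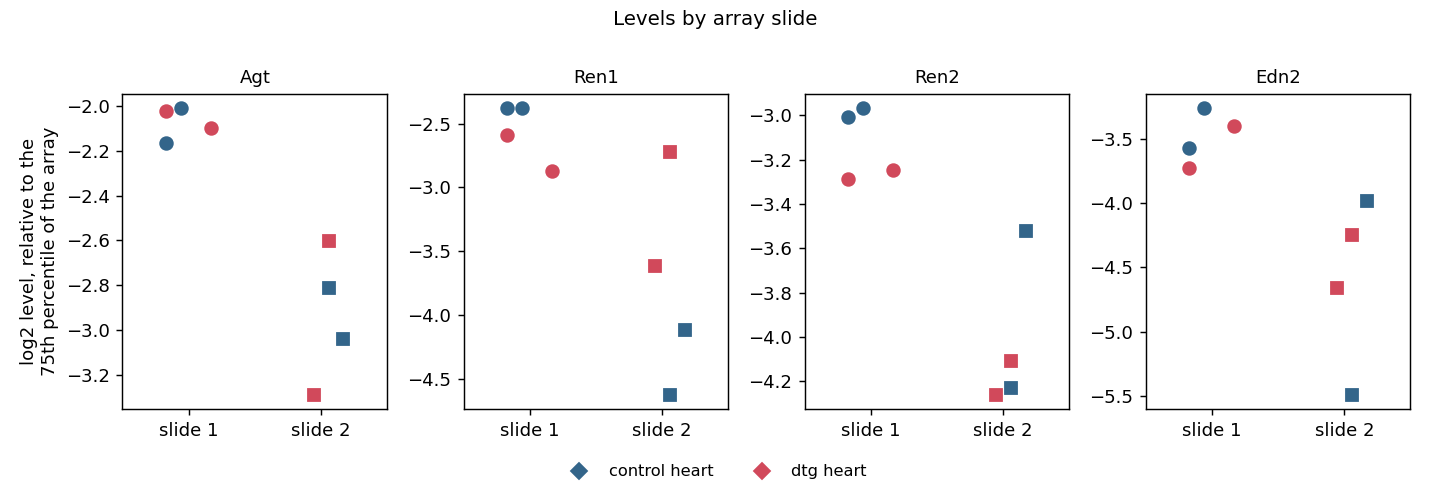
Log2 level of the probes named for Agt, Ren1, Ren2 and Edn2 by array slide, scaled to the array's 75th percentile. Each point is a heart, blue for control and red for dtg. For Agt, Ren2 and Edn2 the 4 hearts on slide 1 lie above the 4 on slide 2, and for Ren1 dtg 3 on slide 2, at -2.72, reaches into the range of slide 1.

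On the endothelin side, 4 of 6 listed partners were kept, 2 higher and 2 lower by their means, with a median of 0.016, and none passed the adjusted threshold. Ece2, a relative of the endothelin-converting enzyme, stood at -3.85, -3.83, -4.34 and -4.11 in controls 1 to 4 and at -3.51, -3.89, -3.65 and -3.42 in dtg 1 to 4. The groups overlapped in dtg 2 alone, and the difference was 0.42 (SE 0.16; limma, unadjusted p = 0.0314, adjusted p = 1), with 0.38 and 0.45 within slides 1 and 2. With normexp on all spots it was -0.064, and 0.17 when dark spots were left out. Ece1, the enzyme that releases mature endothelin, was highest in control 1 and dtg 4, at -1.15 and -1.05, the same hearts in which Edn1 was highest. Ece1 lay between -1.61 and -1.57 in the other controls and between -1.99 and -1.65 in the other dtg hearts, and differed by -0.10 (SE 0.21), or 0.0057 without control 1 and 0.030 without dtg 3. Mme, the protease neprilysin that degrades both peptides, differed by -0.038 (SE 0.16), or 0.0067, 0.047 and 0.010 without control 2, dtg 1 and dtg 2. Edn2 (0.070, SE 0.50) was well above background on 7 arrays, and Edn3 on 1, so Edn3 was not tested.

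Around the mineralocorticoid receptor, 7 of 10 corticosteroid partners were kept, 3 higher and 4 lower, with a median of -0.037. Nr3c1, the glucocorticoid receptor gene, had levels of 3.16 ± 0.12 (SD, n = 4) for controls and 3.19 ± 0.24 (SD, n = 4) for dtg hearts, a difference of 0.027 (SE 0.14). Hsd11b2, the enzyme that shields the mineralocorticoid receptor from glucocorticoids, was well above background on 1 of 8 arrays and was not tested. Cyp11b1 and Cyp11b2, enzymes of adrenal steroid synthesis, were not well above background on any array. The chaperone genes Hsp90aa1 and Fkbp4 differed by -0.26 (SE 0.26) and -0.17 (SE 0.20), and Cyp21a1, another adrenal enzyme gene, by -0.16 (SE 0.46). With the Cyp21a1 probe used, all hearts of slide 1 lay above those of slide 2 (means -2.24 and -3.39), as for 14% of all features. The slides overlapped with its second probe. With slide as a block the SE of Cyp21a1 was 0.22.

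Genes that respond to corticosteroids showed no call either, with 8 of 11 kept members higher, 3 lower and a median of 0.038. Sgk1, a kinase induced through the mineralocorticoid receptor in kidney and elsewhere, stood at 2.34 ± 0.18 (SD, n = 4) for controls and 2.38 ± 0.27 (SD, n = 4) for dtg hearts, a difference of 0.038 (SE 0.16). Per1, which is also a clock gene, differed by 0.43 (SE 0.32), with 0.96 within slide 1 and -0.097 within slide 2. Zbtb16 and Tsc22d3, both induced by glucocorticoids, differed by 0.38 (SE 0.35) and 0.16 (SE 0.19), and Tsc22d3 by -0.015 without control 1, its lowest heart. None of these passed limma's test (adjusted p = 1 for each).

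Downstream of the receptors, 22 of 23 listed transducers were kept, 11 higher and 11 lower, with a median of -0.016. Of those with the smallest unadjusted p, Trpc1, a cation channel, differed by -0.085 (SE 0.10) and Gna13, a G protein subunit, by 0.077 (SE 0.097). Of 16 genes known to respond to angiotensin II or endothelin 15 were kept, 8 higher and 7 lower, with a median of 0.0056. Acta1, the skeletal actin of hypertrophic heart muscle, differed by -0.40 (SE 0.30), with -1.05 within slide 1 and 0.26 within slide 2. Nppb, a peptide hormone released on stretch, differed by 0.22 (SE 0.22), or 0.026 without dtg 3, and Cyba, a subunit of the superoxide-producing oxidase, by 0.11 (SE 0.12). None of the 15 passed the adjusted threshold, and none had an unadjusted p under 0.05 (limma).

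**Figure D5:**
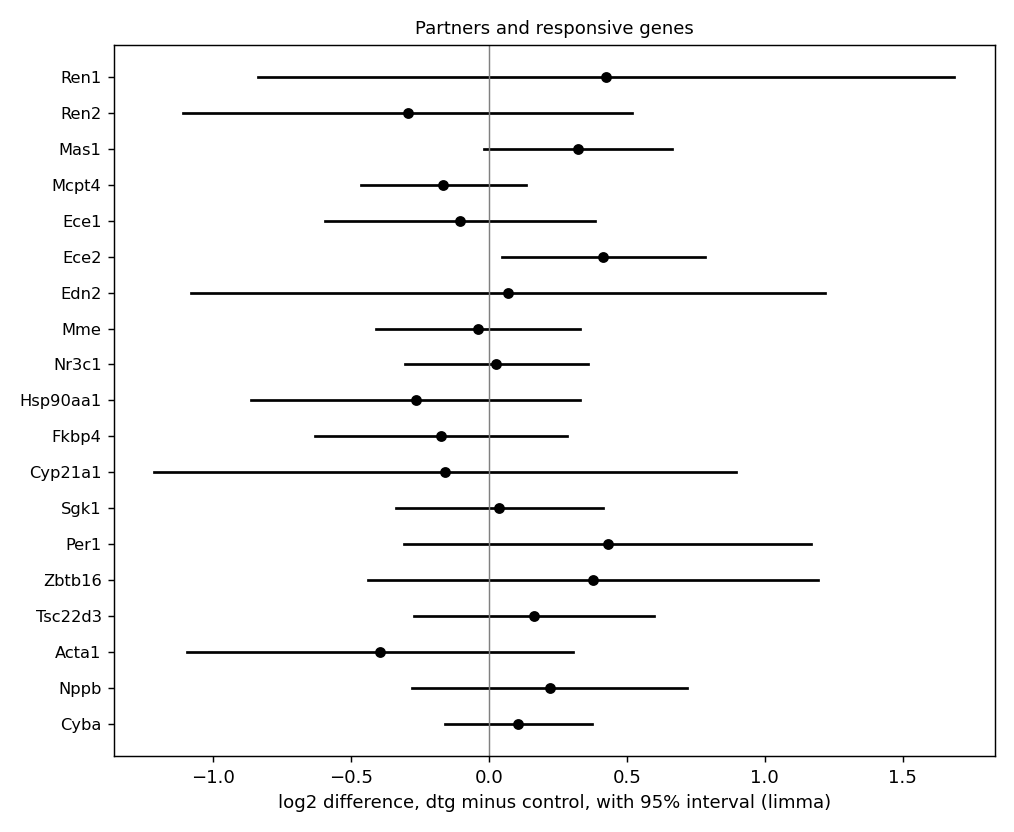
Log2 difference, dtg minus control, of partners and responsive genes, with limma's 95% interval over 8 hearts. The groups overlap for every gene shown, and the interval of Ece2, at 0.42, lies above 0 before adjustment. The intervals of Ren1, Edn2 and Cyp21a1 are the widest.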

How the data were processed

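Total RNA (100 ng) of 8 hearts was labelled with Cy3 and hybridised to 1-colour Agilent arrays. Spot intensities were background-subtracted by the authors' scanner software (Agilent Feature Extraction, version 10.7.3.1 per the file headers), with flags for spots well above background deposited beside them. The authors' deposited table of log2 values correlated at 0.9997 or more with quantile-normalized log2 intensities centred per probe, with column medians of -0.032 to 0.032. The correlation does not compare their scale.

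Outlier and control spots were left out, spots of a probe averaged, and log2 signals reduced by each array's 75th percentile. Probes were named through RefSeq accessions: 26363 of 39429 had a symbol. Probes well above background on at least 4 of 8 arrays were kept (26095), with the brightest per gene, which gave 21412 features. Groups came from the sample labels. They were compared with limma 3.58.1 (R 4.3.3), with no covariate and Benjamini-Hochberg adjustment. The fit was checked on simulated data drawn without slide effects, so that check does not bear on the slides. Correlations used exact permutation tests over all orders of the 8 hearts (NumPy 2.4.6), with ranks and adjustment from SciPy 1.17.1. Between 59.1% and 71.4% of probes were above background and 0 spots were saturated; the number of arrays limits the precision. Named genes were the members, Igf1r, 10 preset partners, the 3 of each list with the smallest p, and the 3 genes most like each member. A few genes that this rule names are not reported here. The members and lists were chosen with earlier results of these data known. Alternatives covered background correction, scaling, filter, probes, slide, replicate block, spread model and single hearts left out. The normexp alternative used spot and local background medians.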

Additional observations from a re-analysis of the deposited data

Results flagged for a closer look

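In 7 of 84 sets of 4 hearts, 1 heart lay far from the other 3 by Dixon's test at the 95% level, and chance does this in about 5% of sets. Ece1 in control 1 was -1.15, against -1.61 to -1.57 in the other controls. Tsc22d3 was 3.00 in control 1, against 3.68 to 3.77, and 3.46 in dtg 1, against 3.76 to 3.79 in the other dtg hearts. Nppb in dtg 3 was 6.20, against 5.33 to 5.48. The mean level of cardiomyocyte markers in dtg 4 was 7.81, against 7.64 to 7.66, and that of endocardial and valve markers in the same heart was 0.58, against 0.091 to 0.13. The mean level of adipocyte markers in control 1 was -1.88, against -1.40 to -1.32.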

How the results depend on the processing

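No gene passed the adjusted threshold in limma under any of the alternatives (0 in each, also at 0.1), and the smallest adjusted p of a member or named gene in any of them was 0.845. The number at an unadjusted p under 0.05, 159, ran from 13 to 780: it was 13 with normexp, 102 with normexp and dark spots left out, 413 with no filter, 251 with slide as a block, 728 and 496 within slides 1 and 2, 780 with array weights, 665 without control 4, dtg 3 and dtg 4, and 98 (without dtg 3) to 329 (without dtg 2) with single hearts left out. Of 168 differences of members under alternatives, 49 had the opposite sign. With normexp background correction the difference was -0.28 for Agt, -0.086 for Ace, -0.13 for Edn1, -0.088 for Ednrb, -0.16 for Nr3c2, -0.16 for Ren1, -0.20 for Edn2, -0.064 for Ece2 and 0.047 for Fkbp4, and the median was -0.030 for renin-angiotensin partners, 0.21 for corticosteroid partners of the mineralocorticoid receptor, 0.19 for corticosteroid-responsive genes and 0.12 for Gq and arrestin transducers. With normexp and dark spots left out the difference was -0.015 for Agt, -0.018 for Ace, -0.0056 for Ednra and -0.0019 for Edn2. With quantile normalization the difference was -0.025 for Agt, -1.78e-05 for Ednra and -0.15 for Edn2. With median scaling the difference was -0.077 for Agt, -0.062 for Ace, -0.040 for Edn1, -0.078 for Ednra, -0.032 for Ednrb, -0.0091 for Edn2, -0.052 for Nr3c1, -0.041 for Sgk1 and -0.0024 for Gna13, and the median was -0.027 for renin-angiotensin partners and -0.10 for Gq and arrestin transducers. With the authors' deposited values the difference was -0.025 for Agt, -0.00060 for Ednra and -0.15 for Edn2. With the mean of all kept probes of a gene the difference was -0.021 for Ednrb and -0.018 for Gna13. Within slide 1 the difference was -0.13 for Ace, -0.062 for Nr3c2, -0.35 for Ren1, -0.15 for Edn2, 0.032 for Ece1, -0.093 for Nr3c1, -0.25 for Zbtb16 and -0.030 for Nppb, and the median was -0.0017 for renin-angiotensin partners. Within slide 2 the difference was -0.020 for Agt, -0.14 for Ednra, -0.14 for Sgk1, -0.10 for Per1, -0.0028 for Gna13 and 0.26 for Acta1, and the median was 0.042 for Gq and arrestin transducers. With array weights the difference was -0.34 for Agt, -0.016 for Ednrb, -0.033 for Nr3c2, -0.32 for Ren1, -0.53 for Edn2, -0.090 for Sgk1 and -0.14 for Zbtb16, and the median was 0.047 for Gq and arrestin transducers. Without the arrays of control 4, dtg 3 and dtg 4, blocked by slide, the difference was -0.17 for Agt, -0.033 for Edn1, -0.045 for Ednra, -0.0015 for Ednrb, -0.018 for Nr3c2 and 0.11 for Cyp21a1. With single hearts left out the differences ran from -0.18 to 0.26 for Agt, -0.049 to 0.15 for Ace, -0.037 to 0.12 for Edn1, -0.069 to 0.11 for Ednra, -0.014 to 0.10 for Ednrb, -0.40 to 0.34 for Edn2, -0.29 to 0.030 for Ece1, -0.041 to 0.14 for Nr3c1, -0.066 to 0.13 for Sgk1, -0.16 to 0.047 for Mme, -0.49 to 0.089 for Cyp21a1 and -0.015 to 0.24 for Tsc22d3. The cause of these shifts was not tested. Replicate numbers of the titles did not pair the samples: the deviations of same-numbered samples correlated at 0.54, -0.54, 0.15 and 0.16, and with the replicate number as a block 0 genes passed and 277 had an unadjusted p under 0.05. The number of arrays limits the precision, and signal near background limits Agtr2, Agtr1b, Edn3 and Hsd11b2.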
